A study of Homo sapiens with 17 samples.

Results

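The binding of full-length FOXA1 was compared with that of its paralog FOXA2, site by site, in one human cell line. The members were the peaks of the combined FOXA1FL and FOXA2FL lists on chromosomes 1 to 22 and X. They numbered 37219 for FOXA1 and 44637 for FOXA2, which is 81856 of the 208775 peaks in the 8 combined lists of the series. Both groups were U2OS cells, an osteosarcoma line, carrying a Tet-on construct for the Flag-tagged full-length factor and induced with doxycycline at 500 ng/ml for 4 days. The extraction protocol gives the same figure per microlitre, and this conflict was not resolved. The same Flag antibody was named for all groups. Each group had 2 biological replicates, joined by the authors into 1 list of peaks that passed the irreproducible discovery rate (IDR), which compares the rank of a peak in one replicate with its rank in the other. Another 4 lists were read for reference: FOXA1dCTD, FOXA2dCTD and FOXA3dCTD, from factors that lack the carboxy-terminal domain, and the first replicate of SOX2FL, a pioneer factor of another family. The labels do not say whether a stable line was 1 clone, and the files hold no protein levels, so the amounts of FOXA1 and FOXA2 in the cells were not compared. The files hold peaks only, so the osteosarcoma identity of the cells could not be checked by expression.

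FOXA proteins are forkhead transcription factors with a winged-helix DNA-binding domain that is nearly the same in FOXA1 and FOXA2, while the amino- and carboxy-terminal parts differ more. They are called pioneer factors because they can bind their sites on nucleosomal DNA. Both act in the endoderm, where they are needed together for the onset of liver development. FOXA1 is also a partner of the estrogen receptor in luminal breast cells, and FOXA2 is active earlier, in the node, notochord and definitive endoderm. U2OS cells are mesenchymal in origin, so these sites were occupied in a cell type that is not the usual home of either factor.

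Promoters with summits of both factors and a forkhead word are shown first, so that summits can be placed against the sequence. They are not typical of shared sites: 3.77% of shared FOXA1 peaks lay within 1 kb of a listed start, and 41 of the 164 promoter windows with both summits held such a word. The 6 sequences below are the 250 bases before an annotated start, from RefSeq on GRCh38.p14, read 5′ to 3′ on the strand of the gene. The first 4 are the promoters with the strongest peaks of both factors among the 27 genes with both summits and a forkhead match in these 250 bases. The last 2 are the strongest such promoters with a summit of FOXA1 alone and of FOXA2 alone. Capitals mark matches, on either strand, to 3 forkhead words. They are the core word TGTTTAC, a variant that reads TATTTAC, and a further variant with the letters TGTTTGC. None of these words contains another.
TNK2: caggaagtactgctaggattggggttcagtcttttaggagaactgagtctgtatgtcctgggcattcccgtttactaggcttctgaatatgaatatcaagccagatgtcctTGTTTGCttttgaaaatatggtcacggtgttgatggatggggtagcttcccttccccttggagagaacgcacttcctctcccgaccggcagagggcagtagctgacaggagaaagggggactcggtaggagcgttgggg
DUSP11: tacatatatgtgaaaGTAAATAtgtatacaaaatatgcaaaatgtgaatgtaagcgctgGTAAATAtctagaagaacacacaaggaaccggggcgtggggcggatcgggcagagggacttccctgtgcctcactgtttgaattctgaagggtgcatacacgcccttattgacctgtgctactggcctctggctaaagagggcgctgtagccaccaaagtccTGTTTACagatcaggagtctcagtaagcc
GTF3C2: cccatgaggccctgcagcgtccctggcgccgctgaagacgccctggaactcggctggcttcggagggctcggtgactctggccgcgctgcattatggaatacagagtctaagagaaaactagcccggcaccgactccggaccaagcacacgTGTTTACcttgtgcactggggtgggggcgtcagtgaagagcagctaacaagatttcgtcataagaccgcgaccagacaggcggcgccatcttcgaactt
WDR48: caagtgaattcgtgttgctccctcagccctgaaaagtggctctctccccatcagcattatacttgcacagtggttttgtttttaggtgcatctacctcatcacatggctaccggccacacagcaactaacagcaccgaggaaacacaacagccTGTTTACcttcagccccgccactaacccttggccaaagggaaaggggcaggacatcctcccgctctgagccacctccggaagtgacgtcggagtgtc
INSIG2: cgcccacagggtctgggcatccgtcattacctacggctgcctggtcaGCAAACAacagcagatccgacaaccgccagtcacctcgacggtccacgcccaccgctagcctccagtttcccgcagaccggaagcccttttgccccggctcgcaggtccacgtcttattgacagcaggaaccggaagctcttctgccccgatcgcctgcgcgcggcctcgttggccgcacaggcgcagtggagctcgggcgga
RSRC1: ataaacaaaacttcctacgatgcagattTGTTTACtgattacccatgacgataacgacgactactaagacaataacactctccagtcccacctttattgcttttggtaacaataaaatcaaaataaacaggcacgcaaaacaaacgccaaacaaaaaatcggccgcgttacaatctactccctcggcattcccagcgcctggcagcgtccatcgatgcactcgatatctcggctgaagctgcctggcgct

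The TNK2 promoter (chr3:195894737-195894986, minus strand) belongs to a non-receptor tyrosine kinase. Its FOXA1 summit lay 101 bp before the start and its FOXA2 summit 160 bp before it, 35 bp and 24 bp from the middle of the match. The DUSP11 promoter (chr2:73780150-73780399, minus strand) belongs to a phosphatase that acts on RNA, and it held 3 matches. Its FOXA1 and FOXA2 summits lay 48 bp and 44 bp from the nearest match. The GTF3C2 promoter (chr2:27356765-27357014, minus strand) serves a subunit of the RNA polymerase III factor TFIIIC, and there the FOXA1 summit was 4 bp and the FOXA2 summit 49 bp from the match. At WDR48 (chr3:39051766-39052015, plus strand), which encodes an activator of deubiquitinating enzymes, these distances were 53 bp and 33 bp. INSIG2 (chr2:118088221-118088470, plus strand), a regulator of sterol synthesis, had a FOXA1 summit 9 bp from its match and no FOXA2 summit in the window. RSRC1 (chr3:158109839-158110088, plus strand), which encodes a splicing-related protein, had a FOXA2 summit 97 bp from its match and no FOXA1 summit in the window. Over the 27 genes with both summits and a match, the median distance from summit to match was 21.0 bp for FOXA1 and 25 bp for FOXA2.

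Promoter windows of 250 bases before to 50 after a start were listed for 15812 of 19974 protein-coding genes, 22132 windows in all. A FOXA1 summit lay in 775 windows (3.50% of them), a FOXA2 summit in 533 (2.41%) and both in 164 (0.741%), which belong to 157 genes. At least 1 of the 3 words occurred in 25% of the windows with both summits (95% Wilson interval 19 to 32.1). The share was 14.2% (11.7 to 17.2) of the 611 windows with a FOXA1 summit alone and 14.1% (10.9 to 18) of the 369 with a FOXA2 summit alone. It was 7.96% of all windows and 7.54% of those with neither. The intervals of the one-factor windows overlapped each other, and windows with both summits stood above each of them. The 3 words differed in this. TGTTTAC occurred in 14.6% of windows with both summits and in 2.85% of all windows, and TATTTAC in 9.76% and 2.02%. TGTTTGC, the word marked at TNK2, occurred in 2.44% of windows with both summits and in 3.40% of all windows. The former was 4 of 164 windows, with an interval of 0.952 to 6.10 that holds the share of all windows. With a FOXA1 summit alone TGTTTGC occurred in 5.40% (3.87 to 7.49) of windows, and with a FOXA2 summit alone in 2.98% (1.67 to 5.26). The median G and C content was 59.3% with both, 61.0% with FOXA1 alone and 62.3% with FOXA2 alone, the last being the same as over all windows; its part in the motif shares was not tested. Among the 157 genes were NFIA, RARB, SOX6, TCF4 and MITF, which encode transcription factors, and TBP, the TATA-binding protein.

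More promoters held FOXA1 than FOXA2 although the FOXA1 list was shorter, but the CTD-deleted lists had the opposite order. A FOXA1dCTD summit lay in 175 windows (0.791%) and a FOXA2dCTD summit in 526 (2.38%). Of the 611 windows with a FOXA1 summit and no FOXA2 summit, 154 (25.2%) had a FOXA2dCTD summit and 53 (8.67%) a FOXA1dCTD summit.

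Of the FOXA1 peaks, 17565 (47.2%, 95% Wilson interval 46.7 to 47.7) overlapped a FOXA2 peak by at least 1 bp. Of the FOXA2 peaks, 17616 (39.5%, 39.0 to 39.9) overlapped a FOXA1 peak. That left 19654 peaks in the FOXA1 list alone and 27021 in the FOXA2 list alone. Each group has 1 combined list without library depth, so all intervals here cover counting error over peaks and not the spread between libraries. The lists were also cut at different limits. The weakest FOXA1 peak had an IDR of 0.20 and the weakest FOXA2 peak one of 0.351, and with the stricter limit on both the shares became 34.1% of 37219 FOXA1 peaks and 51.8% of 24479 FOXA2 peaks. Nearly all shared peaks paired 1 to 1, so the larger share went to the shorter list, and the limit set which list that was. With the 37219 strongest peaks of each list, the shares were 43.5% and 43.6%, near equal by the same construction.

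Sharing rose with the strength of a peak, taken as the lower of its 2 replicate −log10 p values. In the strongest decile of the FOXA1 list, at strengths from 7.51 to 67.4, 79.0% (77.7 to 80.3) of peaks were shared. In its weakest decile, from 2.44 to 2.96, the share was 27.4% (26.0 to 28.9). For FOXA2 the strongest decile ran from 4.33 to 39.4 with 69.5% shared (68.1 to 70.8), and the weakest from 1.52 to 1.59 with 17.8% (16.7 to 18.9). FOXA1 departed from a steady fall in its seventh decile, where 44.1% were shared after 38.1% in the sixth; ties in strength were ordered by position.

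**Figure D1:**
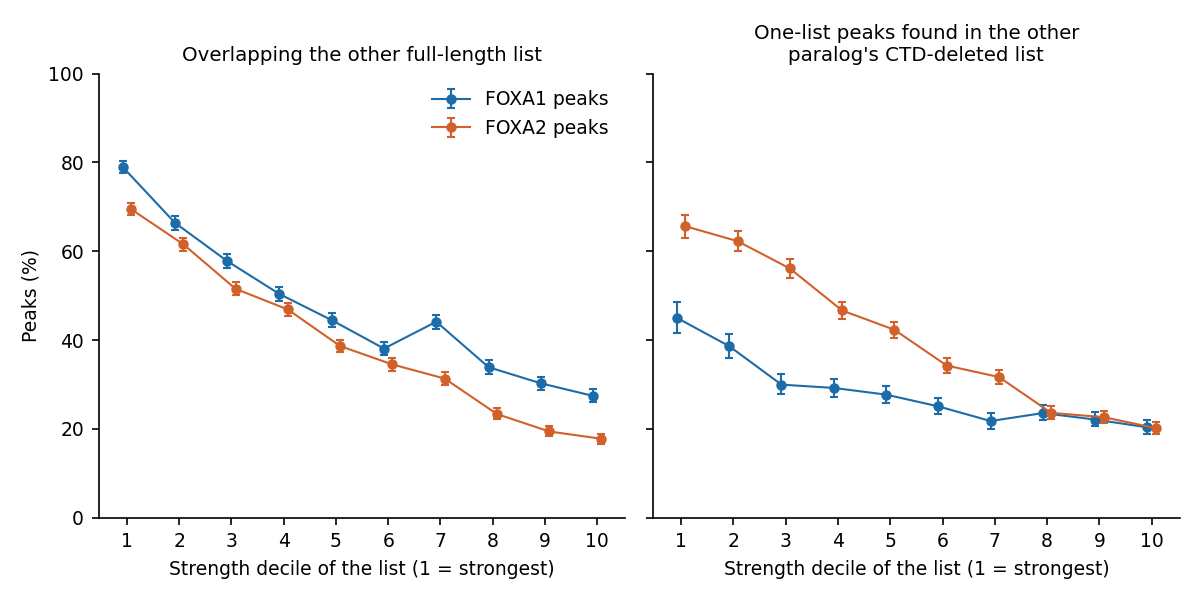
Share of peaks, in percent, against the strength decile of each list (1 is the strongest), with 95% Wilson intervals. Left, peaks that overlap the other full-length list, which fall from 79.0% to 27.4% for FOXA1 and from 69.5% to 17.8% for FOXA2; right, peaks of one full-length list alone that were found in the CTD-deleted list of the other paralog, from 45.0% to 20.4% for FOXA1 and from 65.6% to 20.2% for FOXA2.

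The strongest sites of one factor were mostly in the other list, but seldom among the strongest there. Of the 100 strongest FOXA1 peaks, 85 overlapped a FOXA2 peak of any strength, and 11 overlapped one of the 100 strongest FOXA2 peaks. Of the 100 strongest FOXA2 peaks, 58 overlapped a FOXA1 peak. With the 1000 strongest peaks of each, 22.3% (19.8 to 25) overlapped, and with the 10000 strongest, 36.8% of each did.

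At most shared sites the summits of both factors lay within 100 bp of each other. Over the 17565 shared FOXA1 peaks, each paired with the nearest overlapping FOXA2 summit, the combined summits were a median of 49.0 bp apart (interquartile range 21.0 to 103 bp), and 74.4% (73.7 to 75) were within 100 bp. Within FOXA1 the summits in the first and second replicate columns were a median of 67.0 bp apart, and within FOXA2 52.0 bp. Between single replicates of different factors the median was 51.0 and 50.0 bp for the first FOXA1 columns against each FOXA2 set. It was 73.0 and 74.0 bp for the second FOXA1 columns. The distance between paralogs thus followed which FOXA1 replicate was read. A combined summit is the midpoint of its replicate summits in nearly all rows, so the 49.0 bp is an average of errors and is not comparable with a single-replicate distance.

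Distances were shorter at strong sites. In the strongest quartile the medians were 53.0 bp within FOXA1, 40.0 bp within FOXA2, and 40.0 bp from the first FOXA1 columns to each FOXA2 set. From the second FOXA1 columns they were 57.0 and 56.0 bp. In the weakest quartile the medians were 81.0 bp within FOXA1 and 67.0 bp within FOXA2, 69.0 and 62.0 bp from the first FOXA1 columns, and 94.0 and 91.0 bp from the second. In both quartiles the second FOXA1 columns thus lay farther from FOXA2 than the FOXA1 replicates lay from each other, and the first columns lay nearer. Combined summits over 500 bp apart made up 357 sites, 2.03% of the shared ones. Nearly all sites paired 1 to 1 (17282, 98.4%), and these pairs had a median distance of 48.0 bp.

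**Figure D2:**
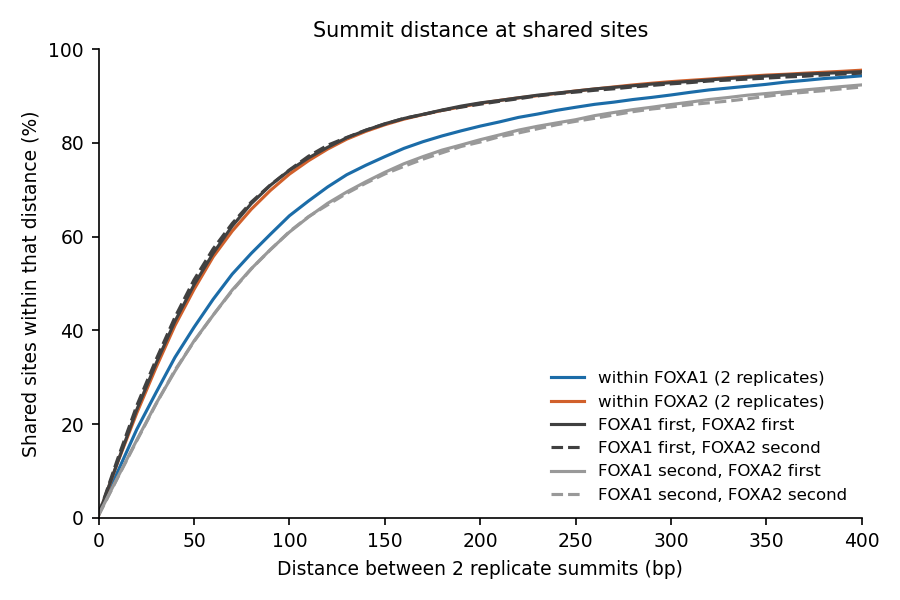
Percent of the 17565 shared sites (vertical axis) whose 2 replicate summits lie within the distance on the horizontal axis, in bp; solid coloured lines are within 1 factor and grey lines between factors. The lines for the first FOXA1 columns against FOXA2 (medians 51.0 and 50.0 bp) lie beside the line within FOXA2 (52.0 bp), and those for the second FOXA1 columns (73.0 and 74.0 bp) lie near the line within FOXA1 (67.0 bp).

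Peak strengths at shared sites agreed in part, and by an amount that differed between the FOXA1 replicate columns. Across the 17565 sites Spearman's rho between the −log10 p columns of the FOXA2 replicates was 0.46, and between the FOXA1 replicates 0.18. The first FOXA1 columns gave 0.47 with either FOXA2 set, and the second FOXA1 columns 0.23 and 0.18. These are descriptions across sites that share their libraries. One set of FOXA1 columns therefore ranked shared sites as FOXA2 did about as well as the FOXA2 replicates ranked them alike. Over its whole list FOXA1 had a replicate rho of 0.10, against 0.48 for FOXA2, 0.56 for FOXA1dCTD and 0.35 for FOXA2dCTD, so the FOXA1 list had the least replicate agreement of these 4.

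Shared sites were also the ones found again in separate libraries. Of the shared FOXA1 peaks, 74.2% (73.5 to 74.8) were found in FOXA1dCTD and 66.5% (65.8 to 67.2) in FOXA2dCTD. Of the FOXA1 peaks outside the FOXA2 list, 39.8% (39.1 to 40.5) were found in FOXA1dCTD and 26.2% (25.6 to 26.8) in FOXA2dCTD. Of the FOXA2 peaks outside the FOXA1 list, 36.2% (35.6 to 36.8) were found in FOXA1dCTD and 41.4% (40.9 to 42.0) in FOXA2dCTD. So each set of one-list sites was found more often in the CTD-deleted list of its own paralog, by 13.6 points for FOXA1 and 5.25 points for FOXA2, and a sizeable part was found in that of the other. FOXA1dCTD also held more of the shared sites, with 74.1% against 66.3% in FOXA2dCTD for shared FOXA2 peaks. The 2 gaps thus include a difference between the CTD-deleted lists and are not comparable in size. One-list sites also lack a full-length peak of the other paralog by definition. Without the longest stretch of each chromosome that holds no annotated gene, the FOXA2 gap was smaller. There, 41.4% of FOXA2-only peaks were found in FOXA2dCTD and 38.5% in FOXA1dCTD. For FOXA1-only peaks the shares there were 39.3% in FOXA1dCTD and 26.7% in FOXA2dCTD. With a −log10 p of at least 5 in each replicate of both full-length lists, 11105 FOXA1 and 3089 FOXA2 peaks were left. One-list peaks were then counted anew against the cut lists, and 14.3% of the FOXA1 peaks left were shared. Of these newly counted peaks, 56.8% of FOXA1-only and 75.6% of FOXA2-only ones were in the other paralog's CTD-deleted list. Sites that were shared in the full lists could enter these classes, so the shares do not describe the one-list peaks above.

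**Figure D3:**
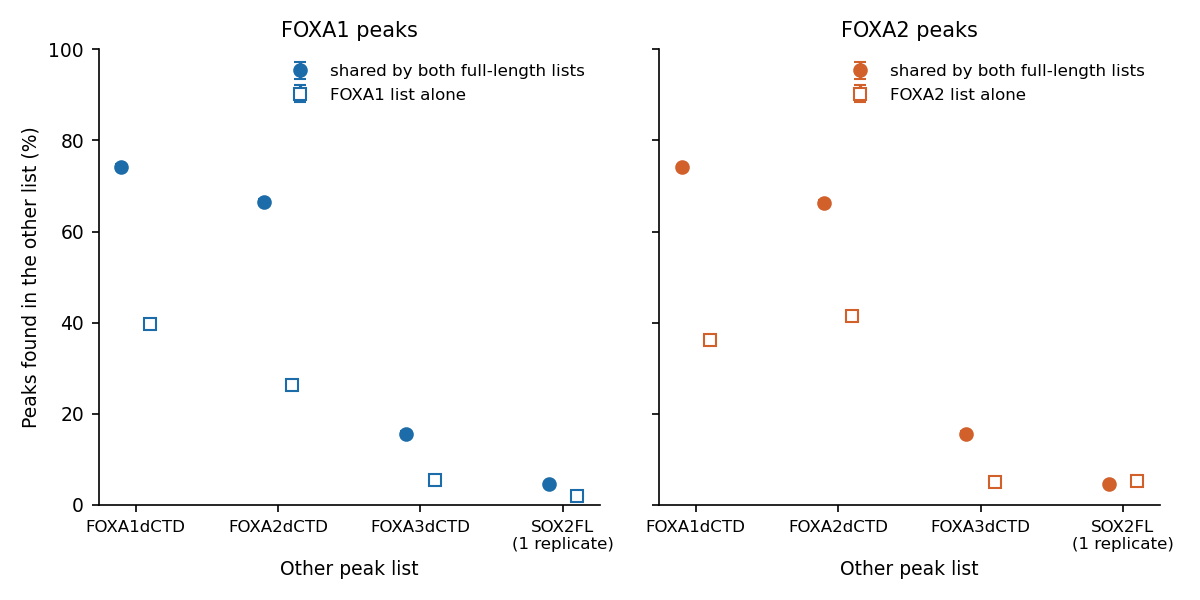
Percent of FOXA1 peaks (left) and FOXA2 peaks (right) found in 4 other lists by an overlap of at least 1 bp, with 95% Wilson intervals that are smaller than the symbols. Filled circles are sites shared by both full-length lists and open squares sites of one list alone; shared sites stand higher in each case except FOXA2 sites in the SOX2FL list, with 4.55% of shared and 5.34% of one-list sites. Without the longest stretch of each chromosome that holds no annotated gene (not drawn), the order of this exception was reversed, with 4.24% and 3.60%.

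Taken as whole lists, FOXA2 peaks were found about as often in FOXA1dCTD as in FOXA2dCTD. FOXA2FL peaks were found in FOXA1dCTD in 51.1% (50.7 to 51.6) of cases and in FOXA2dCTD in 51.3% (50.8 to 51.7), lists of 50105 and 52866 peaks. Without the longest gene-free stretch of each chromosome FOXA1dCTD held more of them, 53.1% (52.6 to 53.5) against 51.6% (51.1 to 52.1). FOXA1FL peaks were found in FOXA1dCTD in 56.0% (55.5 to 56.5) and in FOXA2dCTD in 45.2% (44.7 to 45.7). The short FOXA3dCTD list of 6763 peaks took up 15.7% of shared FOXA1 peaks and 5.46% of those of FOXA1 alone. The SOX2FL replicate, with 13788 peaks, held 3.23% of all FOXA1 and 5.03% of all FOXA2 peaks.

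Some peaks called in one full-length list alone were found in the CTD-deleted list of the other paralog, above all when strong. In the strongest FOXA2 decile, 65.6% (63.1 to 68.1) of the peaks missing from FOXA1FL were found in FOXA1dCTD. In the strongest FOXA1 decile, 45.0% (41.6 to 48.5) of those missing from FOXA2FL were found in FOXA2dCTD. In the weakest deciles these shares were 20.2% and 20.4%. The CTD-deleted list of the same paralog held more of the one-list peaks in these deciles. In the strongest it held 86.0% of those of FOXA2 and 75.7% of those of FOXA1, and in the weakest 21.1% and 22.4%. Peaks in no list of the other paralog numbered 14500 for FOXA1 (39.0% of its list) and 17243 for FOXA2 (38.6%). Of these, 34.2% (33.4 to 35.0) and 30.7% (30.0 to 31.4) were found in the CTD-deleted list of the same paralog.

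Summits of sites in one list alone lay a median of 17.8 kb from the nearest summit of the other factor for FOXA1 and 22.9 kb for FOXA2. One lay within 10 kb of 34.1% and 28.4% of them. Peaks of the other list that overlap are absent by definition, which leaves few summits at shorter range. Peaks of one list alone were narrower, with a median of 637 bp against 762 bp for shared FOXA1 peaks and 533 bp against 641 bp for shared FOXA2 peaks. They were also weaker, with a median strength of 3.57 against 4.48 for FOXA1 and 1.92 against 2.46 for FOXA2.

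FOXA2-only sites lay more often in gene bodies than FOXA1-only sites, and slightly less often within 1 kb of starts. In coding gene bodies lay 47.8% of shared FOXA1 peaks, 44.8% (44.1 to 45.5) of those of FOXA1 alone and 47.0% (46.4 to 47.6) of those of FOXA2 alone. Without the longest gene-free stretch of each chromosome the shares were 46.0% (45.3 to 46.7) of FOXA1-only and 50.9% (50.3 to 51.5) of FOXA2-only peaks, a difference of -4.90 points (-5.84 to -3.96). Within 1 kb of an end of a coding gene lay 6.09% (5.76 to 6.43) of FOXA1-only and 5.63% (5.36 to 5.91) of FOXA2-only peaks. The difference of 0.460 points had a Newcombe interval of 0.0298 to 0.896. Without the longest gene-free stretch of each chromosome it was 0.148 points (-0.303 to 0.604), so it did not hold up there. With the stricter IDR limit on both lists it was 1.29 points (0.790 to 1.78), and with a −log10 p of at least 5 in each replicate 1.89 points (0.908 to 2.68). In both of these settings one-list peaks were counted anew against the cut lists, so other sets of sites were compared. Within 2.5 kb of a gene end, with the full lists, the difference was 0.0113 points (-0.533 to 0.560). At listed starts, 4.81% of FOXA1-only and 3.92% of FOXA2-only peaks lay within 1 kb, a difference of 0.889 points (0.514 to 1.27). Outside the longest stretches these shares were 4.93% and 4.25%, a difference of 0.687 points (0.293 to 1.09), and the median distance to a listed start was 92.4 kb for FOXA1-only and 83.7 kb for FOXA2-only peaks. Within 5 kb of a listed start lay 9.77% (9.36 to 10.2) of FOXA1-only and 9.26% (8.92 to 9.61) of FOXA2-only peaks. Outside the longest stretches the shares within 5 kb were 10.02% and 10.04%, so the difference at starts was not seen at that distance.

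Most genes near a peak of one paralog also had a peak of the other. Of 19974 protein-coding genes, 9428 (47.2%) had a FOXA1 summit in the gene or within 10 kb, and 10234 (51.2%) a FOXA2 summit. Peaks of both occurred at 7561 genes (37.9%), of which 6009 (30.1% of all) had a site shared by both. A FOXA1 peak without a FOXA2 peak occurred at 1867 genes (9.35%), the reverse at 2673 (13.4%), and neither at 7873 (39.4%). Gene length moved with these classes: the median length was 59.9 kb for genes with both, 21.7 kb with FOXA1 alone, 21.2 kb with FOXA2 alone and 12.3 kb with neither. In the longest quartile of genes 72.0% had both and 12.3% neither. In the shortest quartile 15.0% had both and 61.7% neither.

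Genes with one paralog alone mostly rested on a single peak. This was so for 1549 of the 1867 genes with FOXA1 alone (83.0%) and for 1916 of the 2673 with FOXA2 alone (71.7%). Over all coding genes, 45.9% had a FOXA1dCTD peak and 52.3% a FOXA2dCTD peak. Of the genes with FOXA1 alone, 784 (42.0%) had a FOXA1dCTD and 957 (51.3%) a FOXA2dCTD peak. Of the genes with FOXA2 alone, 1160 (43.4%) had a FOXA1dCTD peak and 1505 (56.3%) a FOXA2dCTD peak. In both classes these shares were thus near those of all coding genes, for the CTD-deleted same paralog as for the other one. Genes with neither full-length factor had 10.6% with a FOXA1dCTD and 16.8% with a FOXA2dCTD peak.

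The genes with the most FOXA1 peaks and no FOXA2 peak were DCAF1, CD55, ITGA11, COL13A1 and RALGAPA2. DCAF1, the substrate receptor of a CUL4 ubiquitin ligase (chr3:51395867-51505639), had 5 FOXA1 peaks, 3 of FOXA1dCTD and 1 of FOXA2dCTD. CD55, which protects cells from complement (chr1:207321678-207360966), had 4 FOXA1 peaks, the strongest at 12.8, but also 7 FOXA1dCTD and 6 FOXA2dCTD peaks. ITGA11, a collagen-binding integrin chain, had 4 FOXA1 peaks with 3 and 5 peaks in the 2 CTD-deleted lists. COL13A1, a transmembrane collagen, and RALGAPA2, part of a GTPase-activating complex for Ral, had 4 FOXA1 peaks each and 3 FOXA2dCTD peaks each. In FOXA1dCTD COL13A1 had 2 peaks and RALGAPA2 3, so all 5 genes had a peak in both CTD-deleted lists. Over all coding genes 45.9% had a FOXA1dCTD and 52.3% a FOXA2dCTD peak. The 5 genes were 39.3 to 323 kb long, against a median of 24.2 kb over all coding genes.

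The genes with the most FOXA2 peaks and no FOXA1 peak were NOTCH2NLB, COLEC12, TEAD4, ITPRID2 and FAM20C. TEAD4, a DNA-binding partner of YAP in the Hippo pathway (chr12:2959397-3040676), had 7 FOXA2 peaks, the strongest at 2.17, none of FOXA1dCTD and 3 of FOXA2dCTD. FAM20C, a Golgi kinase of secreted phosphoproteins (chr7:192571-260772), had 6 FOXA2 peaks, none of FOXA1dCTD and 2 of FOXA2dCTD. At these 2 genes neither FOXA1 list had a peak. COLEC12, a scavenger receptor, had 7 FOXA2 peaks and 4 of FOXA1dCTD, and ITPRID2 had 6 and 3. NOTCH2NLB had 7 FOXA2 and 6 FOXA1dCTD peaks, but it has near-identical copies on chromosome 1, so the placement of reads there is uncertain.

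Shared sites were most numerous in very long genes. PCDH15, a protocadherin of hair cells and photoreceptors (chr10:53802771-55627942), had 69 FOXA1 and 73 FOXA2 peaks, and 30 of the FOXA1 peaks were shared. CTNNA3, an alpha-catenin (chr10:65912523-67763594), had 52 and 58 peaks with 30 shared. LINGO2 had 25 shared sites, EYS, a photoreceptor gene, 22, and SDK1, a cell adhesion gene, 21. These 5 genes were 968 to 1987 kb long, against a median of 24.2 kb over all coding genes.

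Peaks of both occurred at between 5 of 18 and 9 of 16 genes of the lists examined, against 37.9% of all coding genes. The lists differed in gene length, with a median of 24.2 kb over all coding genes. List medians ran from 5.48 kb for other forkhead genes (14 of 32 with both) to 70.4 kb for epithelial-mesenchymal genes (9 of 16). In the list with 5 of 18, luminal breast and prostate, the median was 15.9 kb. The part of gene length in these counts was not tested. Of 18 hepatocyte genes, 7 had peaks of both, 2 of FOXA1 alone, 3 of FOXA2 alone and 6 of neither. TTR, the carrier of thyroxine and retinol-binding protein, had 2 peaks of each factor and both FOXA1 peaks were shared. ALB, the serum albumin gene, had 2 FOXA1 peaks and none of FOXA2, with 1 in each of the FOXA1dCTD and FOXA2dCTD lists. Of 18 endoderm and gut regulators, 6 had both and 10 neither, and SOX17, PDX1 and CXCR4 were among those without a peak. HNF4A, a nuclear receptor of liver and gut, had 5 peaks of each factor and 3 of its FOXA1 peaks were shared.

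The luminal breast and prostate list had genes of FOXA1 alone and none of FOXA2 alone. It had 5 genes with both, 5 with FOXA1 alone and 8 with neither, where all coding genes had 9.35% and 13.4% for FOXA1 and FOXA2 alone. The genes with both were ESR1, XBP1, GREB1, FKBP5 and AGR2. ESR1, the estrogen receptor, had 5 peaks of each factor with 2 shared, and GREB1, one of its known targets, 4 of each with 2 shared. Genes with FOXA1 alone included TFF3, KRT8, PGR and HOXB13. PGR, the progesterone receptor, had 2 FOXA1 peaks. KRT8, a keratin of simple epithelia, had 2. In the CTD-deleted lists PGR had 5 peaks of each factor and KRT8 1 of each. Of the 18 genes, 9 had a FOXA1dCTD and 13 a FOXA2dCTD peak, against 45.9% and 52.3% of all coding genes.

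Of 21 AP-1 and YAP-TEAD genes, 13 had a FOXA1 and 16 a FOXA2 peak, 11 had both and 3 neither. Over all coding genes FOXA2 was likewise the more frequent, with 51.2% against 47.2%. FOXA2 alone occurred at JUND, BATF3, MAFF, TEAD3 and TEAD4, and FOXA1 alone at FOS and JUN. WWTR1, which encodes the YAP relative TAZ, had 7 FOXA1 and 4 FOXA2 peaks, and YAP1 itself 1 and 4. AMOTL2, a regulator and target of YAP, had 3 of each, all shared.

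Among 18 osteoblast and mesenchymal genes, 8 had both, 2 FOXA1 alone, 2 FOXA2 alone and 6 neither. RUNX2, the master regulator of bone, had 5 FOXA1 and 6 FOXA2 peaks with 3 shared, and CDH11, osteoblast cadherin, 6 and 5 with 3 shared. Of 16 epithelial-mesenchymal genes, 9 had both, and ZEB1, a repressor of epithelial genes, had 6 FOXA1 and 5 FOXA2 peaks. CDH1, which encodes E-cadherin, had 2 FOXA1 peaks and none of FOXA2, but 3 of FOXA2dCTD. Of 32 other forkhead genes, 14 had both and 10 neither. FOXJ3 had 12 FOXA2 peaks against 2 of FOXA1, and 12 against 7 in the CTD-deleted lists. FOXP1 had 11 against 8. Of 16 housekeeping genes, 7 had both and 8 neither. Within 10 kb of the expressed factors' own genes, FOXA1 and SOX2 each had 1 FOXA1 peak, and no FOXA2 peak was listed at FOXA1, FOXA2, FOXA3 or SOX2.

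**Figure D4:**
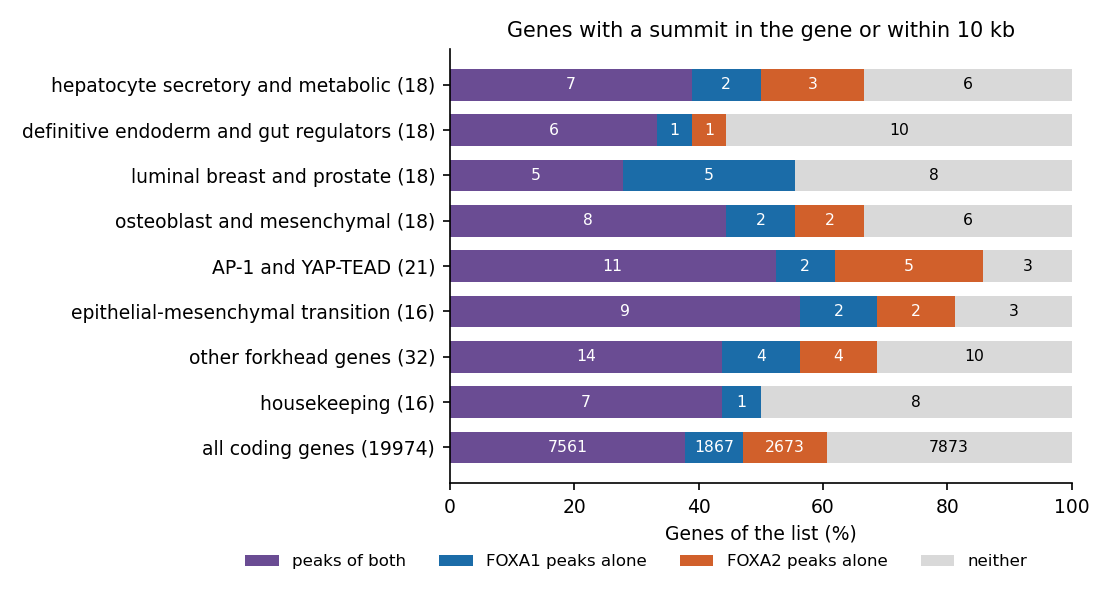
Percent of the genes of each list (horizontal axis, list size in brackets) with a summit of both factors, of FOXA1 alone, of FOXA2 alone or of neither in the gene or within 10 kb, with gene counts in the bars. The bottom bar gives all 19974 coding genes; the luminal breast and prostate list has 5 genes of FOXA1 alone and none of FOXA2 alone, and the AP-1 and YAP-TEAD list 2 and 5.

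The paralogs also differed in stretches of at least 1 Mb without an annotated gene, 30 in all. In GRCh38 such stretches include the modelled centromere arrays and the heterochromatin beside them, where repeats make the placement of reads uncertain. They held 754 FOXA1 peaks (2.03% of the list) and 2713 FOXA2 peaks (6.08%). On chromosomes 1 and 13 FOXA1 had more peaks there, and on most other chromosomes FOXA2 did. In the chromosome 1 stretch, with summits from 121587923 to 125132916, FOXA1 had 466 peaks and FOXA2 237. In that of chromosome 13, with summits from 16113654 to 18035208, the counts were 203 and 118. On the other chromosomes together FOXA1 had 85 peaks and FOXA2 2358, with more FOXA2 in 23 of 28 stretches, more FOXA1 in 2 and equal counts in 3.

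Single stretches were almost empty of FOXA1. On chromosome 4, between 49616697 and 51735414, FOXA1 had 11 peaks and FOXA2 302. On chromosome 18, between 15332432 and 20646591, the counts were 5 and 274. On chromosome 11 they were 11 and 278, on chromosome 5 they were 2 and 220, and on chromosome 7 they were 4 and 148. On chromosome 19, between 24659793 and 27187664, FOXA2 had 220 peaks and none was listed for FOXA1. The acrocentric chromosomes 14, 21 and 22 had 118, 121 and 135 FOXA2 peaks in 1 stretch each, against 0, 1 and 1 of FOXA1.

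The lists of the CTD-deleted factors had the same order in most stretches. On chromosomes 1 and 13 FOXA1dCTD had 838 and 322 peaks, and FOXA2dCTD 241 and 71. On the other chromosomes FOXA1dCTD had 195 and FOXA2dCTD 1551, among them 0 and 239 on chromosome 19, 4 and 181 on chromosome 18, and 50 and 214 in the chromosome 4 stretch. FOXA2dCTD was higher in 19 of these 28 stretches and FOXA1dCTD in 5. FOXA3dCTD had 755 of its 6763 peaks in the stretches of chromosomes 1 and 13, and 49 on all others. Whether the libraries of FOXA1 and FOXA2 were made or processed together is not given in the sources used here, so paralog and processing cannot be told apart. The global IDR values are written to 6 decimals in the FOXA2FL list and to 2 in the FOXA1FL list and all 3 CTD-deleted lists, FOXA2dCTD among them.

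The unrelated factor SOX2 had the same order as FOXA2. The first SOX2FL replicate had 1371 of its 13788 peaks in these stretches (9.94%), with 111 on chromosomes 1 and 13 and 1260 on the others. It had 141 in the chromosome 4 stretch, 111 on chromosome 18 and 87 on chromosome 19. Of the 2358 FOXA2 peaks in stretches away from chromosomes 1 and 13, 24.0% (22.4 to 25.8) overlapped a SOX2FL peak, against 3.78% (3.60 to 3.97) of FOXA2 peaks outside all stretches. For FOXA1 these shares were 8.24% (4.05 to 16) and 3.10% (2.92 to 3.28). The list of a factor without a forkhead domain was thus also rich in these stretches, and the part of library or processing in the difference between the paralogs was not tested.

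**Figure D5:**
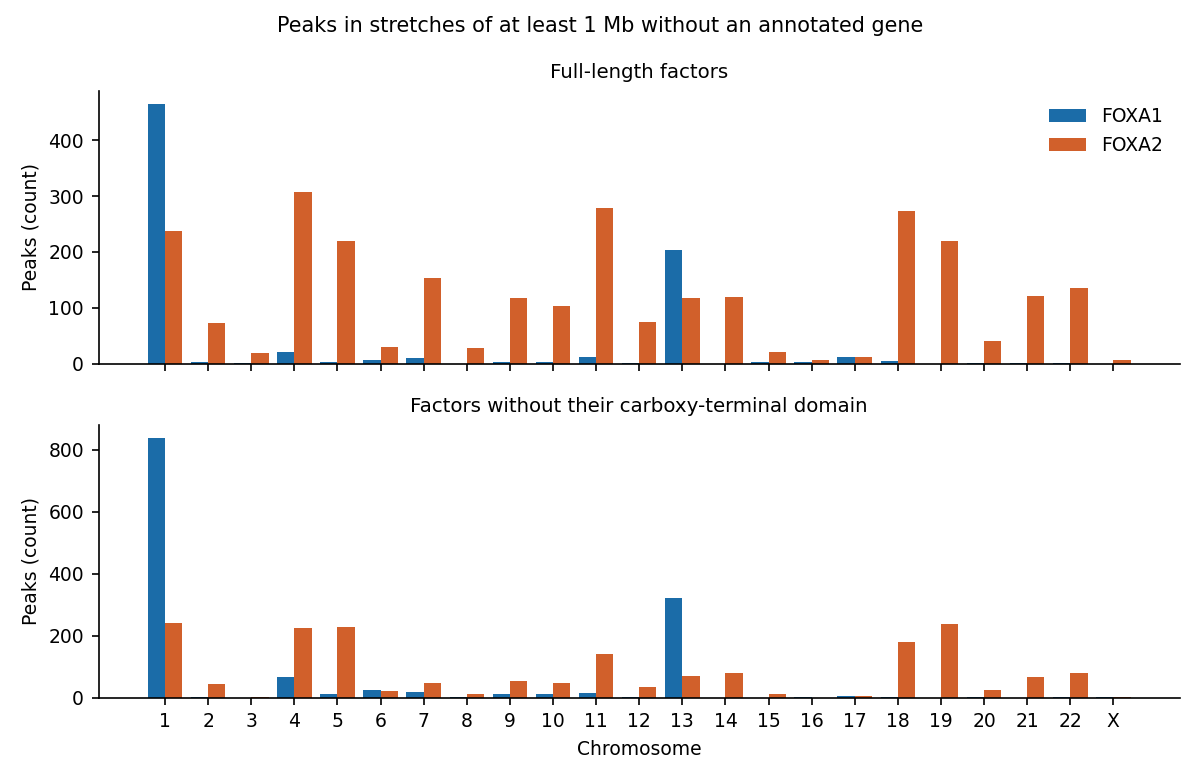
Number of peaks (vertical axis) of FOXA1 (blue) and FOXA2 (orange) in stretches of at least 1 Mb without an annotated gene, summed by chromosome (horizontal axis), for the full-length factors (top) and those without their carboxy-terminal domain (bottom). FOXA1 is higher on chromosomes 1 (466 against 237) and 13 (203 against 118), and FOXA2 on chromosomes 4, 5, 11, 18 and 19 in both panels.

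These peaks were not confined to the weak end of the lists. Of the 100 strongest FOXA2 peaks, 27 lay in such stretches, 24 of them away from chromosomes 1 and 13. Of the 100 strongest FOXA1 peaks 14 did, all on chromosomes 1 and 13. Few of these sites were shared away from chromosomes 1 and 13: 36 of the 2358 FOXA2 peaks (1.53%) overlapped FOXA1 there. On chromosomes 1 and 13, 206 of the 355 FOXA2 peaks (58.0%) did.

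Outside these stretches, 47.5% of the 36465 FOXA1 and 41.4% of the 41924 FOXA2 peaks were shared, and FOXA2 had more peaks on 20 of 23 chromosomes, with a median ratio of 1.17. Chromosome 15 went against this with 1346 FOXA1 and 1119 FOXA2 peaks, a ratio of 0.831, while its CTD-deleted lists had 1556 and 1968, a ratio of 1.26. The excess of FOXA2 by chromosome was near the ratio of the list lengths outside the stretches, 1.15, and the FOXA2 list was cut at the looser limit. With the stricter IDR limit on both lists, stretches included, FOXA2 had fewer peaks than FOXA1, 24479 against 37219. Over 2865 windows of 1 Mb the counts of both factors had a Spearman's rho of 0.89, a description of windows that share their sequence and mappability. The window with the largest excess of FOXA2 held TIAM1 and SOD1 (chr21:31000001-32000000), with 53 FOXA2 and 21 FOXA1 peaks, and 57 and 30 in the CTD-deleted lists. The window with the largest excess of FOXA1 held no coding gene (chr5:29000001-30000000), with 39 FOXA1 and 23 FOXA2 peaks, and 50 and 26 in the CTD-deleted lists. The next one, with SMAD6 and MAP2K1 (chr15:66000001-67000000), had 31 and 16 peaks, but 16 and 30 in the CTD-deleted lists.

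Shared sites were ordered by the worse of their ranks in both lists, and of the first 10, 2 lay within a coding gene. The first (chr7:19494528-19495916) had −log10 p values of 56.0 and 39.9 for FOXA1 and of 32.8 in both columns for FOXA2, with summits 20 bp apart. It was the fifth strongest peak of the FOXA1 and the third of the FOXA2 list, 201 kb from POLR1F, which encodes an RNA polymerase I subunit. The next (chr20:53706893-53707983) was 109.8 kb from ZNF217, a zinc finger gene often amplified in breast cancer, with 62.3 and 45.8 for FOXA1 and 27.1 and 46.1 for FOXA2. Others lay within CDH15, which encodes M-cadherin, 2.76 kb from TNK2 and within SAXO2. Another 2 sites were within 0.418 kb of TAF11L5 and TAF11L6, genes of a family of near-identical copies. A further 2 of the 10 lay in the gene-free stretches of chromosomes 1 and 13. Summits of the 10 sites were 3 to 40 bp apart, other than 311 bp at CDH15 and 368 bp near TAF11L5.

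The 10 strongest peaks of the FOXA1 list alone had strengths of 23.3 to 67.4. The first (chr1:122829329-122830693) lay in the gene-free stretch, with −log10 p values of 70.9 and 67.4, and 2 more of the 10 lay there. The fourth strongest FOXA1 peak, in TTC28 (chr22:28046150-28047837), had 71.1 and 43.9, and the nearest FOXA2 summit was 6.01 kb away. That in PRKAR1B, a regulatory subunit of protein kinase A (chr7:560406-561997), had 39.0 and 49.7 with the nearest FOXA2 summit at 44.4 kb. Both were found in FOXA2dCTD, as were 7 of the 10. The 3 in the chromosome 1 stretch were not, while all 3 were found in FOXA3dCTD.

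The 10 strongest peaks of the FOXA2 list alone had strengths of 20.6 to 39.4. The first and second of the whole FOXA2 list lay 22.4 and 29.0 kb from NKX1-1, a homeobox gene. The first (chr4:1427142-1429369) had −log10 p values of 39.4 and 56.4, and the second (chr4:1434155-1435730) 36.6 and 67.4. That in HACL1, a peroxisomal enzyme of fatty acid oxidation (chr3:15591552-15593361), had 22.5 and 31.3, and no FOXA1 summit lay nearer than 177 kb. Another, 129 kb from the ephrin receptor gene EPHA3 (chr3:89610341-89611151), had 21.9 and 30.1. These 4 were all found in FOXA1dCTD, as were 8 of the 10, and all 10 were found in FOXA2dCTD. The 2 that FOXA1dCTD lacked were in TBC1D22A and in the gene-free stretch of chromosome 19 (chr19:26978607-26978970).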

How the data were processed

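Peaks of Flag ChIP-seq in doxycycline-induced U2OS cells were compared between FOXA1FL and FOXA2FL, grouped by sample title. Per the submitters' processing notes, FastQC 0.10.1, Trim Galore, Bowtie2 2.4.4, SAMtools 0.1.18, MACS2 and deepTools 2.4.1 were used with build hg38. The authors joined both replicates of a group by IDR. The deposited lists give a score (125 times log2 of 1 over the IDR), the replicates' −log10 p values, and other values, namely summit offsets per replicate. The replicate columns carry no replicate number. The peak lists give no read depth.

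Overlaps of at least 1 bp on chromosomes 1 to 22 and X, summit distances, and positions in the RefSeq GRCh38.p14 gene table were computed with Python 3.11.15, numpy 2.4.6, pandas 2.3.3 and scipy 1.17.1, on helpers tested on simulated data. The table lists genes of unplaced scaffolds under chromosome names, which can move the ends of gene-free stretches. Shares carry Wilson and differences Newcombe 95% intervals; each group has 1 list, so no test across replicates was made. By rule, the text names the 10 strongest shared and one-list sites, the 5 genes with most peaks per class, genes of 8 fixed lists, and promoters with both summits, those on chromosome 8 left aside; the 1 Mb windows and examples within lists were picked after their values were seen. The members and lists were chosen with earlier results of these data known. Alternatives were stricter limits, equal numbers, other overlap rules, merged peaks, other gene distances and omitted gene-free stretches. Protein sequences were not used here. The account of 1 shared site and of 1 gene of a list is not reported here.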

Additional observations from a re-analysis of the deposited data

Results flagged for a closer look

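Peaks outside chromosomes 1 to 22 and X were left out of every comparison by the choice of chromosomes, and are listed here as data outside the main measurement. They numbered 313 for FOXA1FL (0.834% of its list) and 439 for FOXA2FL (0.974%), on 135 and 154 sequences. Of these, 48.9% of the FOXA1 peaks (95% Wilson interval 43.4 to 54.4) and 35.5% of the FOXA2 peaks (31.2 to 40.1) overlapped the other list.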

How the results depend on the processing

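Over 65 recomputed values of 7 results, 24 stayed within the reported 95% interval, 41 moved out of it and none changed sign; the cause was not tested beyond the construction of each alternative (fewer peaks or another distance). In what follows, values are the overlap share of FOXA1 and of FOXA2 peaks, the share of FOXA1-only peaks in FOXA2dCTD and of FOXA2-only peaks in FOXA1dCTD (all in %), and then other results by name. One-list peaks were counted anew under each setting, so their classes do not hold the same sites. The stricter IDR limit on both lists gave 34.1, 51.8, 31.0 and 50.8, a median summit distance of 46.0 bp, a gene-end difference of 1.29 points and 29.6% of genes with both. Equal numbers gave 43.5, 43.6, 26.9 and 40.4, and 35.3% of genes. Keeping peaks with a −log10 p of at least 5 in each replicate left 11105 FOXA1 and 3089 FOXA2 peaks and gave 14.3, 51.5, 56.8 and 75.6, 35.0 bp, 1.89 points and 5.49% of genes. Reciprocal overlap of 50% gave 39.4, 32.8, 23.1 and 32.1, and summits within 100 bp gave 35.1, 29.3, 19.9 and 31.0, and 33.0 bp. Ranking by the first replicate column gave overlap shares of 43.5 and 43.6, and by the second 43.6 and 43.7. Without the longest gene-free stretches FOXA2 gave 41.1 and 38.5, and without all of at least 1 Mb 41.4 and 39.1, where the gene-end difference was 0.0569 points (-0.398 to 0.516). At 2.5 kb that difference was 0.0113 points (-0.533 to 0.560). Genes with both made up 26.3% in gene bodies alone and 63.2% within 50 kb. The 5000 strongest peaks gave 32.2 and 32.3. That setting, replicate intervals and all stretches of at least 1 Mb were chosen after seeing the data. An IDR of at most 0.01 left 3407 FOXA1 and no FOXA2 peaks (lowest IDR 0.0137), so it gave no value. No paired analysis was possible because each group has 1 combined list whose replicate columns carry no number.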
